A study of Mus musculus with 4 samples.

Results

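The EGR, NR4A and KLF immediate early genes described here were Egr1, Egr2, Egr3, Nr4a1, Ier2, Btg2, Dusp1, Klf2, Klf4 and Klf6, 10 genes chosen by symbol out of 52636 genes with a value in each file. Their RNA was measured by bulk RNA-seq in cells of the corpus callosum, the large white matter tract between the hemispheres, of mice that all carried the Mertk_KO genotype and had all eaten chow with 0.2% cuprizone for 4 weeks. Mertk is a receptor through which phagocytes take up dying cells, and cuprizone is a copper chelator that kills oligodendrocytes. The dissociated cells were divided into dying (AnnexinV-positive) and living (AnnexinV-negative) cells by staining with annexin V, which recognises phosphatidylserine on the outer face of dying cells, with 2 libraries in each group. No wild-type or untreated library was analysed here, and the labels give neither the age of the mice nor the knockout allele, nor do they say whether the libraries of a group stem from different mice or from 1 pool. The p-values therefore reflect the spread among these 4 libraries alone, which may be technical.

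Immediate early genes are transcribed within minutes of a stimulus without new protein synthesis, from promoters already occupied by serum response factor, ETS proteins, CREB or MEF2 that MAP kinase and calcium signalling activate. Their products either switch on a second wave of genes, as the zinc finger proteins of the EGR and KLF families and the orphan nuclear receptor Nr4a1 do, or switch the signal off, as the phosphatase Dusp1 does. In microglia, the macrophages of the brain, these genes respond to inflammatory and phagocytic stimuli, and in many cell types they also rise while tissue is dissociated with enzymes, a step that all 4 libraries went through. No library of undissociated tissue was analysed, so the part of this step in the levels was not tested.

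Promoter windows of 300 bases (250 before and 50 after a RefSeq transcription start, GRCm38.p6) were searched for 7 of the 10 genes. They covered 5 start sites for Egr2 and 1 each for Nr4a1, Klf2, Klf4, Klf6, Btg2 and Dusp1. Egr1, Egr3 and Ier2 were not searched, which does not mean that they lack a RefSeq start or these motifs. Bases before a RefSeq start, and outside the exons that GENCODE annotates, are shown for 5 genes whose windows hold the response elements for which this class of genes is known, with capitals on the CArG box (the site of serum response factor), the cAMP response element TGACGTCA or its shorter form TGACG (read as CGTCA on the other strand), and the MEF2 site. The Egr2 stretch is chr10:67537619-67537868 on the plus strand, that of Nr4a1 chr15:101266596-101266845 on the plus strand, that of Klf2 chr8:72318812-72319032 on the plus strand, that of Btg2 chr1:134079156-134079405 on the minus strand and that of Dusp1 chr17:26508520-26508722 on the minus strand. The Klf2 and Btg2 stretches lie outside the annotated gene, whereas those of Egr2, Nr4a1 and Dusp1 lie before an internal start and within an intron of longer annotated transcripts of the same gene.
Egr2: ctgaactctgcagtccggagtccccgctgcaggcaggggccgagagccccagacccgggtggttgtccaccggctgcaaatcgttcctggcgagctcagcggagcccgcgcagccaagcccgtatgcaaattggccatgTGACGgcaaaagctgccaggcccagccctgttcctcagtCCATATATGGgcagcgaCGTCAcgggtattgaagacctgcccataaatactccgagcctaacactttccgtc
Nr4a1: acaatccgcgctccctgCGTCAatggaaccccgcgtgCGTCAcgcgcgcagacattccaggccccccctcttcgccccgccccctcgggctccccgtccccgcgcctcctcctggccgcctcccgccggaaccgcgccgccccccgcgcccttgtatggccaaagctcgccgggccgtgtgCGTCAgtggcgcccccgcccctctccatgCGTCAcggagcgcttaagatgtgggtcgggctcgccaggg
Klf2: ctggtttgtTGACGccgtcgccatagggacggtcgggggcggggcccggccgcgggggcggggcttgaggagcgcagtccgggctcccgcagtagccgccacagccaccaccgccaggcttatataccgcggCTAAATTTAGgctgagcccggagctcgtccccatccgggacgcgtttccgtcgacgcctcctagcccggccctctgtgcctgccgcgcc
Btg2: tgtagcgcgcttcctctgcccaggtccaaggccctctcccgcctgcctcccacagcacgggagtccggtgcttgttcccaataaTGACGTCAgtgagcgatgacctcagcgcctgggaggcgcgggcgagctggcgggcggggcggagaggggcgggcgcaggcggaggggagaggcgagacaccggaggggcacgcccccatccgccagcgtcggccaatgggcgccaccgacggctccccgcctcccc
Dusp1: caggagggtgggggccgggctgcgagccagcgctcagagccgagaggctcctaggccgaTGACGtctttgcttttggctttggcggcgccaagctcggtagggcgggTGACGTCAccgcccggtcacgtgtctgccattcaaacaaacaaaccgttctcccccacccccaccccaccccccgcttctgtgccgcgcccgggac

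In the third Egr2 window the CArG box lay at bases -72 to -63 from the start, between short cAMP response elements at -111 to -107 and -55 to -51. A CArG box was present in 4 of the 11 windows, all of them Egr2 windows that in part overlap, and in 1.63% of all 32851 windows of this length. Btg2 held the whole cAMP response element at -166 to -159 and Dusp1 at -143 to -136, a sequence found in 1.79% of all windows. The short form TGACG, which is also part of the whole element, was present in 8 of the 11 windows and in 20.8% of all windows. These 8 windows belong to 6 of the 7 genes (all but Klf6), and Nr4a1 alone had 4 copies. The SP/KLF site GGGCGG was present in 8 of the 11 windows, at least 1 for each of the 7 genes, and in 35.7% of all windows. The MEF2 site of Klf2 lay at -118 to -109, a site found in 3.19% of all windows, and an NF-kB site lay across the Nr4a1 start, a site found in 4.51%. The EGR site GCGTGGGCG (0.612% of all windows), the AP-1 site TGANTCA (7.81%), the NR4A site AAAGGTCA (1.51%) and TATAAA (13.6%) were in none of the 11 windows. Both strands were searched, and a match in these letters is a description of the window only.

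**Figure D1:**
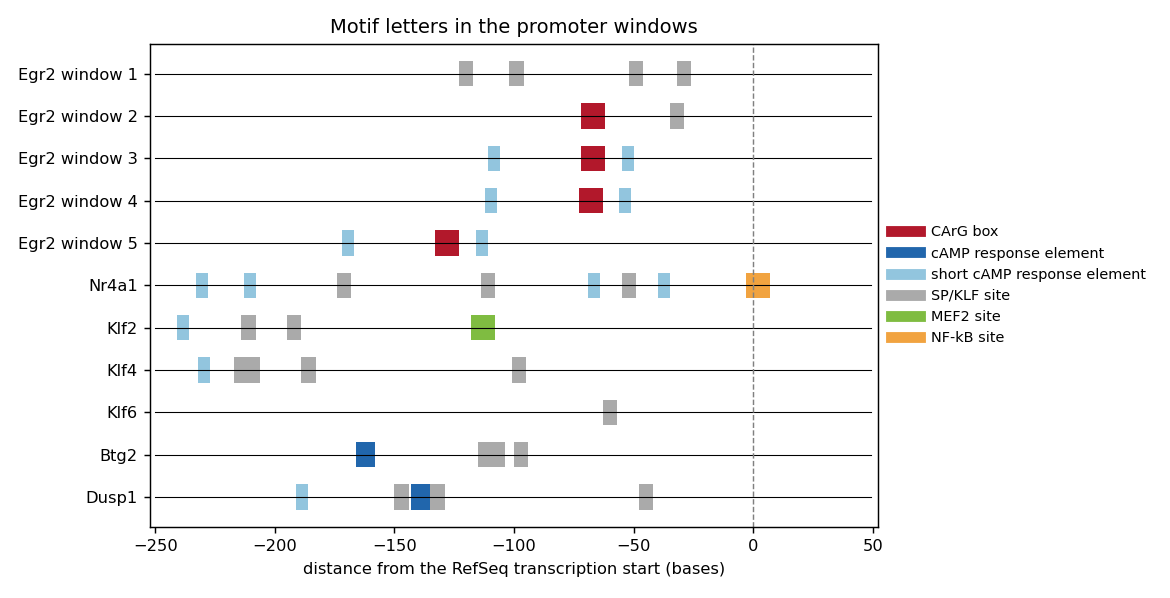
Position of motif letters in the RefSeq promoter windows of 7 genes. Each line is 1 window, the x axis is the distance from the transcription start in bases, and coloured boxes are matches on either strand; the CArG box (red) is seen in Egr2 windows and the whole cAMP response element (dark blue) in Btg2 and Dusp1.

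On the scale of the deposited values, 8 of the 10 genes were higher in AnnexinV-positive than in AnnexinV-negative cells, 0 were lower, and Klf2 and Klf4 did not pass the test. Values were read as RPKM, reads scaled to gene length and then between libraries by a factor that the sources used here do not give. That factor left the libraries with unequal sums, 200348 and 217768 RPKM in AnnexinV-positive against 122944 and 120680 RPKM in AnnexinV-negative libraries, and every fold change on the deposited scale includes this gap. Log2 fold changes were taken on log2(RPKM + 0.1), AnnexinV-positive minus AnnexinV-negative, and a gene was called where the Benjamini-Hochberg adjusted p of limma over all 10927 genes tested was under 0.05. On this scale 30.8% of all genes tested were higher (3364 genes, but 1749 without AnnexinV-positive replicate 1 and 1297 without AnnexinV-positive replicate 2) and 9.26% lower, and the median log2 fold change was 1.06 over the 10 genes and 0.45 over all genes tested. All 10 genes were read at an RPKM of at least 1 in 2 libraries and so were tested, and in all 10 both AnnexinV-positive libraries lay above both AnnexinV-negative libraries, as they did in 60.9% of all genes tested. On the TPM scale, which gives every library the same sum, 0 of the 10 genes were higher and 0 lower. Of all genes tested, 1.03% were higher and 19.1% lower on that scale. With each library centred on microglia markers 9 of the 10 fold changes were below 0, with a median of -0.16. Over all genes tested the median was then -0.78, with 0.119% higher and 56.7% lower. In sorted bulk samples, more cells of a type and more RNA per cell cannot be told apart.

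**Figure D2:**
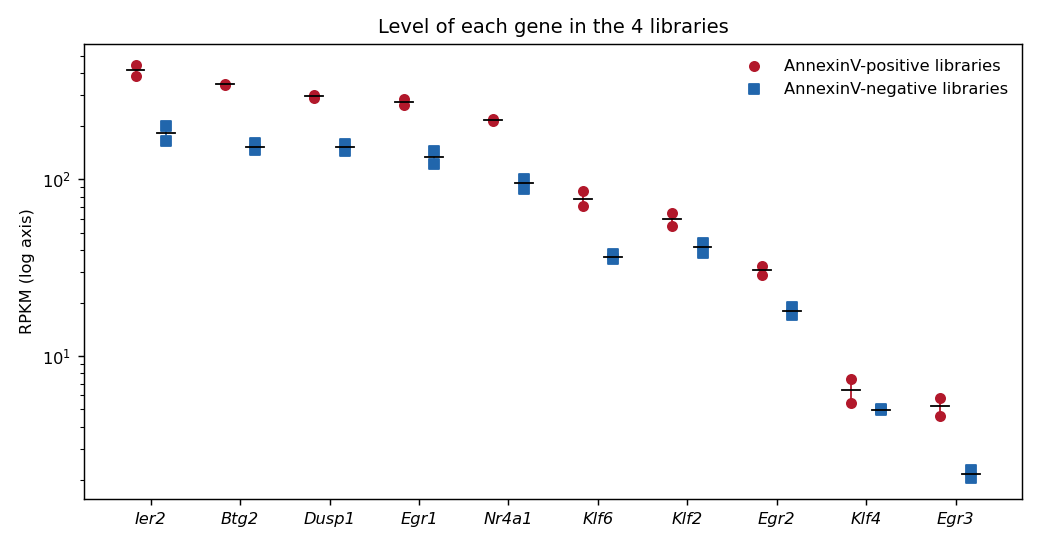
RPKM on a log axis of each gene in the 4 libraries, with AnnexinV-positive libraries (red circles) left of AnnexinV-negative libraries (blue squares) and black bars at the group means (n = 2 each). The groups do not overlap for any of the 10 genes on the deposited scale, and the gap is narrowest for Klf4.

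The EGR genes encode zinc finger transcription factors that bind a GC-rich site. Egr1 (ENSMUSG00000038418, chromosome 18, 34859823 to 34864984, plus strand) was at 284 and 262 RPKM in the AnnexinV-positive libraries, against 122 and 145 RPKM in the AnnexinV-negative libraries. Both AnnexinV-positive libraries lay well above the higher AnnexinV-negative one, and the spread within each group was small beside the gap. The log2 fold change was 1.03 (SE 0.19, limma adjusted p 0.00733), a 2.04-fold ratio of the means, 273 ± 15.2 RPKM in AnnexinV-positive and 134 ± 16.5 RPKM in AnnexinV-negative cells (SD, n = 2 each). Egr2 (ENSMUSG00000037868, chromosome 10, 67535475 to 67542188, plus strand), known in the nervous system for its part in Schwann cell myelination and in macrophages as an activation gene, was at 32.4 and 28.7 RPKM in AnnexinV-positive and 17.02 and 19.1 RPKM in AnnexinV-negative libraries. Its groups were closer than those of Egr1, differing by 0.76 on the log2 scale (SE 0.18, limma adjusted p 0.0172). The Egr2 call was lost without either AnnexinV-positive library, at 0.67 (limma adjusted p 0.115) without replicate 1 and 0.84 (limma adjusted p 0.0640) without replicate 2. Egr3 (ENSMUSG00000033730, chromosome 14, 70077203 to 70082614, plus strand), itself a target of EGR1 in other cells, was the lowest of the 3 at 5.80 and 4.61 RPKM in AnnexinV-positive libraries, against 2.27 and 2.04 RPKM in AnnexinV-negative libraries. Its log2 fold change was 1.23 (SE 0.21, limma adjusted p 0.00614), and this was the highest value of the 10 genes, although 6.21% of all genes tested had a larger one. The 3 EGR genes thus spanned levels from about 2 to 284 RPKM and all rose on the deposited scale, while Egr2 was below 0 on the TPM scale and Egr1 and Egr2 were below 0 with microglia centring.

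Nr4a1 (ENSMUSG00000023034, chromosome 15, 101254269 to 101274795, plus strand) encodes the orphan nuclear receptor NUR77, an early response gene of lymphocytes and macrophages that has also been linked to apoptosis. It was at 219 and 215 RPKM in AnnexinV-positive cells, against 88.8 and 101 RPKM in AnnexinV-negative cells. The AnnexinV-positive pair was nearly equal, and the groups were far apart relative to the spread in either, with means of 217 ± 2.49 RPKM in AnnexinV-positive and 94.8 ± 8.54 RPKM in AnnexinV-negative cells (SD, n = 2 each). The log2 fold change was 1.20 (SE 0.18, limma adjusted p 0.00415), the lowest adjusted p of the 10 genes.

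The KLF genes encode zinc finger proteins that bind CACCC and GC boxes. Klf6 (ENSMUSG00000000078, chromosome 13, 5861482 to 5870394, plus strand), an injury-response factor of macrophages and other cells, was at 70.3 and 85.5 RPKM in AnnexinV-positive libraries, against 35.5 and 37.7 RPKM in AnnexinV-negative libraries. It rose by 1.08 on the log2 scale (SE 0.18, limma adjusted p 0.00608). Klf2 (ENSMUSG00000055148, chromosome 8, 72319033 to 72321656, plus strand), which endothelial cells raise under laminar flow and which holds T cells and macrophages in a quiet state, was at 54.2 and 64.6 RPKM in AnnexinV-positive and 44.0 and 38.5 RPKM in AnnexinV-negative libraries. Klf4 (ENSMUSG00000003032, chromosome 4, 55527143 to 55532466, minus strand), a factor of vascular cells, macrophages and pluripotent cells, was at 5.41 and 7.41 RPKM in AnnexinV-positive and 5.02 and 4.96 RPKM in AnnexinV-negative libraries. For Klf4 the lower AnnexinV-positive library was close to both AnnexinV-negative libraries, so the difference between the means rested on AnnexinV-positive replicate 2, without which the log2 fold change was 0.12. Neither passed the test, with log2 fold changes of 0.52 for Klf2 (95% interval 0.08 to 0.97, limma adjusted p 0.0620) and 0.34 for Klf4 (95% interval -0.17 to 0.85, limma adjusted p 0.231). These intervals are not adjusted for the number of genes, and they include the median of 0.45 over all genes tested.

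Ier2, Btg2 and Dusp1 stood among the most abundant of the 10 genes. Ier2 (ENSMUSG00000053560, chromosome 8, 84661331 to 84662852, minus strand), a small nuclear protein made from a gene of a single exon, was at 385 and 446 RPKM in AnnexinV-positive cells, against 166 and 202 RPKM in AnnexinV-negative cells. Its libraries differed within each group by more than those of Btg2, but the groups stayed apart, at a log2 difference of 1.18 (SE 0.20, limma adjusted p 0.00602). Btg2 (ENSMUSG00000020423, chromosome 1, 134075170 to 134079120, minus strand), an antiproliferative protein that recruits the CCR4-NOT deadenylase and is also a p53 target, was at 340.4 and 348 RPKM in AnnexinV-positive libraries, against 146 and 159.9 RPKM in AnnexinV-negative libraries. Its log2 fold change was 1.17 (SE 0.18, limma adjusted p 0.00449), close to that of Ier2. Dusp1 (ENSMUSG00000024190, chromosome 17, 26505590 to 26562128, minus strand), the nuclear phosphatase that inactivates p38, JNK and ERK and limits cytokine production by macrophages, was at 289.6 and 302 RPKM in AnnexinV-positive cells, against 145 and 159 RPKM in AnnexinV-negative cells. It rose by 0.96 on the log2 scale (SE 0.18, limma adjusted p 0.00775), the smallest rise of these 3. Dusp1 was the only gene of the 10 that shares exon bases with another gene, 11 bases with Ergic1 on the other strand, and the TruSeq v2 kit does not keep strand.

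The order of levels in RPKM was nearly the same in both groups. In AnnexinV-positive cells it ran from Ier2 through Btg2, Dusp1, Egr1, Nr4a1, Klf6, Klf2, Egr2 and Klf4 to Egr3, and the ranges of the 2 libraries overlapped between neighbours only for Klf4 and Egr3. In AnnexinV-negative cells Klf2 stood above Klf6, and neighbours overlapped for Btg2 with Dusp1 and for Dusp1 with Egr1. Together the 10 genes summed to 1686 and 1764 RPKM in AnnexinV-positive libraries, against 771 and 869 RPKM in AnnexinV-negative libraries. That sum was 0.841% and 0.810% of all values in the AnnexinV-positive libraries, against 0.627% and 0.720% in the AnnexinV-negative libraries.

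Klf2 and Klf4 mostly had lower ratios to the other genes of the same library in AnnexinV-positive than in AnnexinV-negative cells. The ratio of Klf2 to Ier2 was 0.141 and 0.145 in AnnexinV-positive libraries, against 0.265 and 0.191 in AnnexinV-negative libraries, and that of Klf2 to Klf6 was 0.771 and 0.756 in AnnexinV-positive libraries, against 1.24 and 1.02 in AnnexinV-negative libraries. Such ratios do not depend on how a library is scaled. The ratio of Klf2 to each of the other 8 genes was lower in both AnnexinV-positive libraries for 7 of them, Egr2 being the exception, and that of Klf4 for 8 of 8. For Klf2 to Egr1 the groups were close, at 0.191 and 0.247 in AnnexinV-positive and 0.360 and 0.265 in AnnexinV-negative libraries. For Klf4 to Egr2 they nearly met, at 0.167 and 0.258 in AnnexinV-positive and 0.295 and 0.260 in AnnexinV-negative libraries. The share of all genes with such lower ratios was not counted. On the deposited scale the median log2 fold change was 1.06 over the 10 genes and 0.45 over all genes tested. Of all genes tested, 43.8% had a larger log2 fold change than Klf2 and 58.5% a larger one than Klf4. For the other 8 genes this share ran from 6.21% (Egr3) to 27.2% (Egr2). These 8 thus lay high among all genes tested, so lower ratios to them are not shown to be particular to Klf2 and Klf4. Both genes were singled out after their values were seen, and 2 libraries against 2 cannot give an exact permutation p below 0.333, so these ratios are given without a test. The summed levels of all 7 lists of markers of cells other than microglia were also lower in both AnnexinV-positive libraries. The gap was narrow for T or NK cells, at 2.27 and 3.30 RPKM in AnnexinV-positive and 7.10 and 3.40 RPKM in AnnexinV-negative libraries. In that list Klrb1c went the other way, at 1.24 and 0.940 RPKM in AnnexinV-positive and 0.557 and 0.647 RPKM in AnnexinV-negative libraries. The 10 endothelial markers summed to 8.97 and 12.8 RPKM in AnnexinV-positive libraries, against 44.2 and 46.3 RPKM in AnnexinV-negative libraries. Of these markers 6 of 8 tested were lower, beside 9.26% of all genes tested, and 0 of 10 were at 0 in any library. Mural cell markers summed to 22.9 and 18.1 RPKM in AnnexinV-positive and 71.3 and 65.3 RPKM in AnnexinV-negative libraries, and astrocyte markers to 34.4 and 50.8 RPKM in AnnexinV-positive and 103 and 75.4 RPKM in AnnexinV-negative libraries. The part of none of these cell types in the Klf2 and Klf4 ratios was tested.

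On the deposited scale the markers of homeostatic microglia moved in the same direction as the 10 genes. Over all genes tested, 30.8% were higher on that scale and the median log2 fold change was 0.45. All 14 of them were higher in AnnexinV-positive cells on the deposited scale, 2 of them on the TPM scale, with a median log2 fold change of 1.24 on the deposited scale, and their summed level was 7268 and 7663 RPKM in AnnexinV-positive libraries, against 2806 and 3323 RPKM in AnnexinV-negative libraries. None was at 0 in any library. Set against that sum, Ier2 stood at 5.30% and 5.82% in AnnexinV-positive and 5.91% and 6.07% in AnnexinV-negative libraries, and Egr3 at 0.0798% and 0.0602% in AnnexinV-positive and 0.0808% and 0.0614% in AnnexinV-negative libraries. Klf2 stood at 0.746% and 0.843% of it in AnnexinV-positive libraries, against 1.57% and 1.16% in AnnexinV-negative libraries. The 10 genes together came to 23.2% and 23.0% of the summed microglia markers in AnnexinV-positive cells, against 27.5% and 26.2% in AnnexinV-negative cells. The part of the microglia markers in the result was not tested beyond this scale.

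How many of the 10 genes passed the test therefore depended on the scale. With each library centred on its median log2 value, 7 were higher (10.4% of all genes tested were higher and 10.8% lower), the call on Egr2 being lost at 0.44 (limma adjusted p 0.129). With the libraries shifted so that the median fold change of all genes was near 0, 5 were higher (6.53% of all genes higher and 11.9% lower), namely Egr3, Nr4a1, Ier2, Btg2 and Klf6, with log2 fold changes of 0.66 to 0.81. On the TPM scale the values ran from -0.43 for Klf4 to 0.49 for Egr3, with 1.03% of all genes higher and 19.1% lower. With each library centred on the microglia markers, 0 were higher and 2 were lower, Klf2 at -0.70 (limma adjusted p 0.0350) and Klf4 at -0.88 (limma adjusted p 0.0209). On that scale 0.119% of all genes were higher and 56.7% lower, and the other 8 genes lay between -0.47 for Egr2 and 0.0083 for Egr3. The median log2 fold change of all genes tested was 0.45 on the deposited scale, 0.13 after median centring, -0.32 on the TPM scale and -0.78 with microglia centring, against 1.06, 0.74, 0.28 and -0.16 for the 10 genes.

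**Figure D3:**
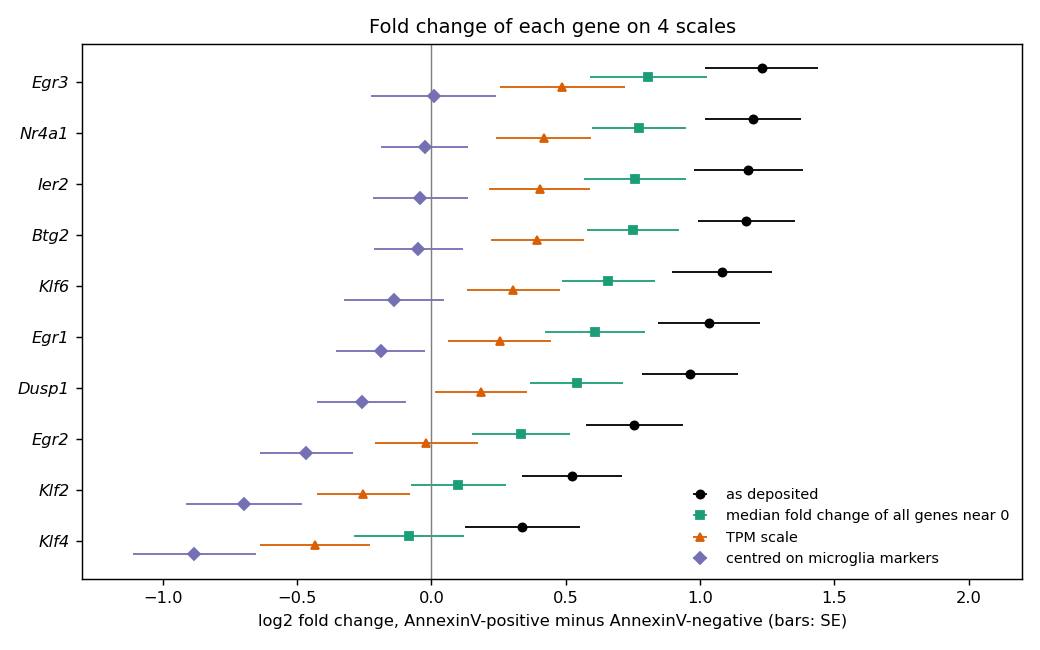
Log2 fold change (AnnexinV-positive minus AnnexinV-negative, bars SE) of each of the 10 genes on 4 scales. All 10 are above 0 as deposited, 7 on the TPM scale (orange) and 1, Egr3 at 0.0083, with microglia centring (purple), and Klf2 and Klf4 have the lowest values on every scale shown.

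The closest relatives and partners of these genes moved in part. The counts of this and the other lists stand beside 30.8% higher and 9.26% lower of all genes tested on the deposited scale. On the TPM scale these shares were 1.03% and 19.1%. Of 5 listed genes of the EGR and NR4A families and their corepressors, 3 of 4 tested were higher on the deposited scale with a median log2 fold change of 0.87, and 0 were higher on the TPM scale. Without AnnexinV-positive replicate 2 it was 1 of 4, and 2 of 4 without AnnexinV-positive replicate 1 or AnnexinV-negative replicate 1. Nr4a3, a paralog of Nr4a1, was at 2.29 ± 0.86 RPKM in AnnexinV-positive and 0.798 ± 0.106 RPKM in AnnexinV-negative cells (SD, n = 2 each), a log2 difference of 1.37 (SE 0.31, limma adjusted p 0.0155), while the paralog Nr4a2 was at -0.08 (limma adjusted p 0.822). The EGR corepressors Nab2 and Nab1, which EGR proteins themselves induce in other cells, were higher by 1.02 (limma adjusted p 0.00723) and 0.71 (limma adjusted p 0.0274) in log2, although Nab2 shares exon bases with Nemp1, Stat6 and Gm16229. Egr4 was below the RPKM minimum.

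The other KLF genes differed in both directions. Of 14 listed, 9 were tested, 1 was higher and 2 were lower, with a median log2 fold change of -0.14, and on the TPM scale 0 were higher and 5 lower. Klf10, an early target of TGF-beta, was at 21.3 ± 1.69 RPKM in AnnexinV-positive and 11.4 ± 0.232 RPKM in AnnexinV-negative cells (SD, n = 2 each) and was the gene that was higher, at 0.90 (limma adjusted p 0.00910), a call lost without AnnexinV-positive replicate 1, when 0 of the 9 were higher. Klf9 and Klf15, both induced by glucocorticoids in other tissues, fell by 2.56 and 2.45 on the log2 scale (limma adjusted p 0.000756 and 0.000838). Klf9 was at 0.881 ± 0.0168 RPKM in AnnexinV-positive and 5.74 ± 1.03 RPKM in AnnexinV-negative cells, and Klf15 at 0.789 ± 0.000422 RPKM in AnnexinV-positive and 4.79 ± 0.640 RPKM in AnnexinV-negative cells (SD, n = 2 each).

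Among 8 relatives of Btg2 and Ier2, 4 of 6 tested were higher and 1 lower (1 and 2 by TPM), their median being 1.09. Ier5 and Ier3, immediate early genes like Ier2, were higher by 1.46 and 1.10 in log2, as was the antiproliferative Tob2 by 1.21 (limma adjusted p 0.00204, 0.00518 and 0.00341), with Btg1 at 1.09. Tob1 was at 6.91 ± 0.950 RPKM in AnnexinV-positive and 14.4 ± 1.63 RPKM in AnnexinV-negative cells (SD, n = 2 each), a fold change opposite to that of its paralog Tob2, at -1.05 (limma adjusted p 0.00790), and this call was lost without AnnexinV-positive replicate 2. Among 9 other phosphatases of MAP kinases, 3 of 8 tested were higher and 1 lower (1 and 3 by TPM), their median being 0.56, with 2 higher when either AnnexinV-positive library was left out. Dusp2, which immune cells express, was at 169 ± 28.3 RPKM in AnnexinV-positive and 52.8 ± 2.02 RPKM in AnnexinV-negative cells (SD, n = 2 each), which gave a log2 fold change of 1.66 (limma adjusted p 0.00203), and Dusp5 and Dusp6, both specific for ERK, were at 1.39 and 0.78. Dusp10, specific for JNK and p38, was at 1.50 ± 0.345 RPKM in AnnexinV-positive and 7.84 ± 0.456 RPKM in AnnexinV-negative cells (SD, n = 2 each) and had a log2 fold change of -2.32 (limma adjusted p 0.00103).

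Of 9 AP-1 genes, which encode dimerising factors of the same early response, 7 of 8 tested were higher (1 by TPM), their median being 1.13, with the smallest p for Maff at 1.53, Atf3 at 1.34 and Junb at 1.28. Fos was the tested one that did not pass, at 372 ± 20.5 RPKM in AnnexinV-positive and 267 ± 2.63 RPKM in AnnexinV-negative cells (SD, n = 2 each), a log2 fold change of 0.48 (limma adjusted p 0.0731). Of 25 further immediate early genes 18 of 23 tested were higher and 2 lower (2 and 2 by TPM), their median being 1.13. Cebpb, a factor of inflammatory transcription, had the smallest p of those that were higher, at 1.45 (limma adjusted p 0.00270). The 2 that were lower were Arc, an activity-regulated gene of neurons, at 0.402 ± 0.0682 RPKM in AnnexinV-positive and 7.39 ± 1.28 RPKM in AnnexinV-negative cells, and Ccn1, a matricellular target of YAP, at 2.61 ± 0.0969 RPKM in AnnexinV-positive and 7.78 ± 0.774 RPKM in AnnexinV-negative cells (SD, n = 2 each). Their log2 fold changes were -3.90 and -1.54 (limma adjusted p 0.000270 and 0.00242). The summed level of 8 neuron markers was 1.92 and 1.85 RPKM in AnnexinV-positive and 15.8 and 10.5 RPKM in AnnexinV-negative libraries. In the AnnexinV-negative libraries Tubb3 made 8.97 and 5.82 RPKM of it and Stmn2 3.76 and 1.57 RPKM, while Rbfox3 was at 0.150 and 0.118 RPKM in AnnexinV-positive and 0.0897 and 0.0566 RPKM in AnnexinV-negative libraries, and the part of neurons in the value of Arc was not tested.

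Of 18 transcription factors and kinases that act upstream of immediate early genes, 11 of 16 tested were higher and 0 lower on the deposited scale (0 and 1 by TPM), their median being 0.82. The count was 5 of 16 when either AnnexinV-positive library was left out. Mef2c, a factor of microglia and neurons, was at 1.30, Crem at 1.15 and the ERK-activated kinase Rps6ka1 at 1.17 on the log2 scale. Serum response factor itself, Srf, was at 4.29 ± 0.233 RPKM in AnnexinV-positive and 2.53 ± 0.412 RPKM in AnnexinV-negative cells (SD, n = 2 each), a log2 fold change of 0.75 (limma adjusted p 0.0292). Over the 7 lists, 47 of 74 tested genes were higher and 6 lower, beside 30.8% higher and 9.26% lower of all genes tested. By TPM 5 and 13 of the 74 were higher and lower, beside 1.03% and 19.1% of all genes tested. Some of the genes named here share exon bases with a neighbour (Junb with Prdx2, Tob2 with Gm49476, Dusp5 with AC137853.2, Cebpb with Tmem189, Crem with Gm6225, Rps6ka1 with Gm12977, also Rgs11 with Arhgdig and Pck2 with Gm10876), and reads of such pairs cannot be told apart.

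**Figure D4:**
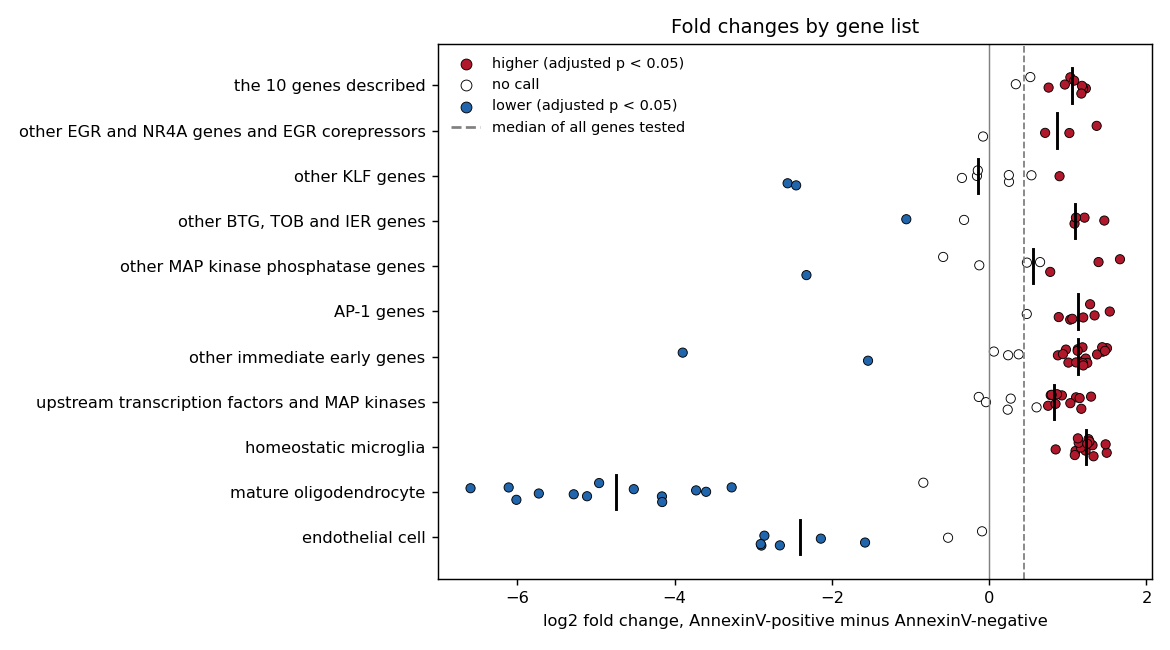
Log2 fold changes on the deposited scale (AnnexinV-positive minus AnnexinV-negative) of the tested genes of the lists shown, 1 point a gene. A black bar marks each list's median and a dashed line the median of all genes tested (0.45). The astrocyte, mural cell, neuron, T or NK cell and neutrophil lists are not drawn. The 10 genes described have a median of 1.06 beside 1.24 for homeostatic microglia and -0.14 for the other KLF genes; on the TPM scale the 3 medians were 0.28, 0.46 and -0.92.

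The genes whose pattern over the 4 libraries was most like that of Egr1 were Cep55, Rgs11 and Ankrd13d, with root mean square distances of 0.0054, 0.017 and 0.019 between log2 values centred on each gene's mean. For Nr4a1 they were Fosl2, Pck2 and Btg2, at 0.022, 0.027 and 0.0295, and for Klf2 they were Fkbp7, Ube2r2 and Eif3e, at 0.0056, 0.0090 and 0.012. Among the 10 genes themselves, Klf4 was the closest to Klf2, at 0.13, and Dusp1 the closest to Egr1, at 0.081. With 4 libraries many genes match closely (202 genes lay nearer to Egr1 than Dusp1 did, and 1045 nearer to Klf2 than Klf4 did), so likeness here is a description.

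Reads in genes, recovered from the values, came to about 67447936 and 60136462 in AnnexinV-positive and 50524363 and 43243885 in AnnexinV-negative libraries. The 10 genes were covered by about 871 reads (Egr3 in AnnexinV-negative replicate 2) to 125795 reads (Egr1 in AnnexinV-positive replicate 1). Mertk was read at 62.6 and 53.6 RPKM in AnnexinV-positive and 18.8 and 29.9 RPKM in AnnexinV-negative libraries, and without a wild-type library or values per exon this does not check the genotype. The 15 markers of mature oligodendrocytes summed to 162 and 49.9 RPKM in AnnexinV-positive libraries, of which Enpp2 made 115 and 15.6 RPKM, against 1091 and 556 RPKM in AnnexinV-negative libraries, and 13 of 14 tested were lower. Of the other lists, 8 of 10 astrocyte markers (4 without AnnexinV-positive replicate 1), 4 of 6 mural cell markers, 2 of 3 tested neuron markers, 1 of 2 tested T or NK cell markers and 2 of 2 tested neutrophil markers were lower, and 0 were higher.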

How the data were processed

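Per the labels' protocols, mice were perfused, the tissue was dissociated with a neural tissue kit and total RNA was sequenced after preparation with the TruSeq RNA v2 kit. Reads were aligned with GSNAP to mm10, per the submitters' processing notes; the sources used here do not give the counter, annotation or gene lengths. The deposited values carry no unit in the file headers and were read as RPKM scaled by the authors: 79.6% to 83.6% of the values worth under 100 reads lay within 0.01 of a whole number of reads at the gene lengths of GENCODE vM21 (GRCm38, the assembly of mm10), which also gave symbols for 52403 of 52636 genes and all coordinates.

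Genes with at least 1 RPKM in 2 libraries were tested (10927) with limma 3.58.1 in R 4.3.3 on log2(RPKM + 0.1) with an intensity trend and no covariate, after a test on simulated data. Fold changes on this scale understate those of low genes. The 10 genes and all lists were chosen with earlier results of these data known. Named besides the 10 were the 3 genes with the smallest p of each list other than the cell type marker lists, and genes needed to describe small counts. The 3 genes nearest to Egr1, Nr4a1 and Klf2 were also named. Fos, Srf, Nr4a2, Enpp2, Btg1, Tubb3, Stmn2, Rbfox3, Cspg4 and Klrb1c were added after their values were seen. Alternatives changed the pseudocount, filter, scale, trend, replicate block and libraries.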

Additional observations from a re-analysis of the deposited data

How the results depend on the processing

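With a pseudocount of 0.5 or 1, no filter, a filter of 5 RPKM (which removes Egr3), or no trend, every one of the 10 genes tested kept its direction and its side of the threshold. Of the 10927 genes tested, 3364 were higher and 1012 lower. Without the filter these were 1865 and 2489 of 44826, and with the filter of 5 RPKM 2632 and 270 of 5028. After median centring 1133 of the 10927 were higher. On the TPM scale 113 were higher and 2091 lower, and with microglia centring 13 and 6191. With the median fold change near 0 (a scale chosen after seeing the data) 713 were higher. Of the 10 genes, 8 were higher as deposited, 0 on the TPM scale, 0 (and 2 lower) with microglia centring, and 5 with the median fold change near 0. Of 74 other listed genes 47 were higher and 6 lower as deposited, 5 and 13 on the TPM scale, 0 and 24 with microglia centring, and 27 higher with the median fold change near 0. On the TPM scale 3 of the 10 were below 0. Egr2 turned to -0.019, and Klf2 and Klf4, which had not passed the test, also fell below 0, Klf4 to -0.43. With microglia centring Egr1 turned to -0.19, Egr2 to -0.47, Nr4a1 to -0.025, Ier2 to -0.041, Btg2 to -0.049, Dusp1 to -0.26, Klf6 to -0.14, Klf2 to -0.70 and Klf4 to -0.88; this scale subtracts the microglia shift by construction. Leaving out 1 library at a time gave 1297 to 3356 higher genes (1749 without AnnexinV-positive replicate 1 and 1297 without replicate 2), and 7 or 8 of the 10, with the genes tested held and a lone library assumed to vary like the other group. With the replicate number as a block, 2443 of the 10927 genes tested were higher and 957 lower, and 8 of the 10 were higher. However, same-numbered libraries deviated from their group means with a correlation of -0.215. The labels do not say whether the numbers pair them, so the numbers were not used as pairs. With the numbers crossed, an alternative added after seeing the data, 4891 of the 10927 were higher and 1136 lower, beside 9 of the 10 higher. With 2 libraries a group, their number limits the precision of every value.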
